A study of Mus musculus with 28 samples.

Results

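Dividing granulosa cells of the juvenile mouse ovary were defined as cells that carried granulosa transcripts and transcripts of the cell division machinery at the same time. A cell was taken where at least 2 of the granulosa genes Foxl2, Kitl, Inha and Gatm were detected, collagen and fibroblast genes were under 0.2% and oocyte genes under 0.3% of its unique molecular identifiers (UMIs, 1 per captured transcript), and at least 4 of the 6 division genes Top2a, Mki67, Cdk1, Ube2c, Birc5 and Cenpf were detected. This rule found 4097 cells among 14648 granulosa cells and 38274 cells of all kinds that passed the limits on quality. The cells were thus chosen by the measured UMIs of these genes, whose levels are given below as descriptions only.

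The study compared wild-type (WT) and Chek2-/- females without Chek2, the kinase that relays DNA breaks to p53, 6 h after whole-body gamma irradiation of 0.5 Gy (IR) or 0 Gy (nonIR). The methods list C57BL/6J mice and the Chek2tm1b(EUCOMM)Hmgu allele, which is carried in every cell, and the females were 7 days old for single cells and 7 to 9 days old for irradiation in general. Each of the 4 groups had 1 single-cell library, made from the pooled ovaries of 4 females that were dissociated with collagenase, DNase and trypsin, and 6 bulk libraries, each of paired whole ovaries. No group had a second single-cell library, so each single-cell comparison below compares 2 libraries, and its intervals (exact binomial, 95%) cover counting error only.

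Granulosa cells surround and feed the oocyte. In resting (primordial) follicles they are flat and rarely divide, and once a follicle starts to grow they become cuboidal, divide and make anti-Müllerian hormone and inhibin. A cell that meets a DNA break while it copies its DNA or enters mitosis can halt through checkpoint kinases and p53, whose target Cdkn1a blocks cyclin-dependent kinases. Interferon-stimulated genes are a separate programme, known from antiviral defence, that signals through IRF and related factors bound at a promoter motif named the interferon-stimulated response element (ISRE). Many genes of G2 and mitosis carry another promoter motif, the cell cycle genes homology region (CHR).

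Both motifs stand in promoters of the genes that the results turn on. The sequences are those of RefSeq on GRCm38.p6, the 250 bases before the start of the gene, written along the gene's strand, with capitals marking each match on either strand to the ISRE core (GAAA and GAAA with any 2 letters between them) or to the CHR letters TTTGAA. Isg15 (a ubiquitin-like modifier) and Ifit1 (an RNA-binding antiviral protein) are shown because their ratios of WT IR over WT nonIR were among the highest. Top2a (a topoisomerase that untangles chromosomes) and Cdc20 (the activator of the anaphase-promoting complex) are shown because they mark the cells themselves.
Isg15 (chr4:156200819-156201068, minus strand): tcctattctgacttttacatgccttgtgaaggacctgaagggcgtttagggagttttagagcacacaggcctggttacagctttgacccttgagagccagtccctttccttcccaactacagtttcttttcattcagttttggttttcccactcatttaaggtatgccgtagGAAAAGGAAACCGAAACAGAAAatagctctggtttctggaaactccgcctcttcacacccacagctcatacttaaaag
Ifit1 (chr19:34640639-34640888, plus strand): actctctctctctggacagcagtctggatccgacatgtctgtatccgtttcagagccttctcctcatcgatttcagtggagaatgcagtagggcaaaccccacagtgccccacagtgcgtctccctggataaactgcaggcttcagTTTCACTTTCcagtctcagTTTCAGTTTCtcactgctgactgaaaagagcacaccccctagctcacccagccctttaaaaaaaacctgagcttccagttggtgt
Top2a (chr11:99024190-99024439, minus strand): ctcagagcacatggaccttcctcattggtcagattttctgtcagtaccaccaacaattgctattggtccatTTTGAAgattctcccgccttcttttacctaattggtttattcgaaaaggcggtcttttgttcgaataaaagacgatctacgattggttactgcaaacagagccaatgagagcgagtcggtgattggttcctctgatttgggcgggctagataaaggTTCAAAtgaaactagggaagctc
Cdc20 (chr4:118437344-118437593, minus strand): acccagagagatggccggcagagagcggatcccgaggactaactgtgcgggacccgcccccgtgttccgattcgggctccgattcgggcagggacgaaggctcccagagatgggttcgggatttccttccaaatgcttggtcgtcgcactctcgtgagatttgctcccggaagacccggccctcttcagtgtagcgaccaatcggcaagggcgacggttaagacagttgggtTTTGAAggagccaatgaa
Isg15 held 3 overlapping matches to the ISRE core and Ifit1 held 2. Windows from 250 bases before to 50 after the start held the ISRE core in 3.44% of 32851 promoters of the table. Of the interferon list described below, 8 of the 12 genes found there had it. The CHR letters stood in 17.9% of all these windows, in 22 of the 34 genes found for the G2 and mitosis list and in 5 of the 6 division genes of the rule. List counts are by gene, with a match in any promoter of the gene counted, and the shares are by promoter, so their units differ. A match describes letters only, not binding.

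The dividing granulosa cells were deeply sequenced. Their median UMI count was 31664 in the WT nonIR library, 29739 in WT IR, 31328.5 in Chek2-/- nonIR and 33510 in Chek2-/- IR, and their summed UMIs ranged from 29409224 to 48652226 per library. Granulosa cells in which 0 or 1 of the 6 division genes were detected, called quiet granulosa cells here, had medians of 16724 to 17218 UMIs. Scrublet called 21, 52, 35 and 51 of the dividing cells doublets, and these were kept and left out only as an alternative. Pairs of libraries shared 30 to 73 barcodes over all cells and at most 1 among the dividing cells. The 24 bulk libraries held 17824920 to 32605519 estimated counts.

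Chek2 itself followed the labels in every library. Its level in dividing granulosa cells was 21.5 CPM (UMIs scaled to the same total in each library) in WT nonIR, 21.3 in WT IR and 5.47 in both Chek2-/- libraries. The remaining UMIs do not show intact Chek2 RNA, since these 3' tags need not lie in the deleted part. In whole ovaries Chek2 was 22.4 ± 1.66 CPM (SD, n = 6) in WT nonIR and 3.75 ± 0.545 (SD, n = 6) in Chek2-/- nonIR, and the groups did not overlap. Within the WT libraries Chek2 was 4.22-fold higher in dividing than in quiet granulosa cells without IR and 4.15-fold higher with IR.

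The share of granulosa cells in division was largest in the irradiated Chek2-/- library. It was 26.6% (873 of 3276, interval 25.1 to 28.2) in WT nonIR, 24.9% (991 of 3977, 23.6 to 26.3) in WT IR, 24.8% (886 of 3574, 23.4 to 26.2) in Chek2-/- nonIR and 35.3% (1347 of 3821, 33.7 to 36.8) in Chek2-/- IR. The first 3 intervals overlapped and the last stood above them. Deeper cells show more genes, so each cell was also thinned to 5000 UMIs, which left out 31 to 199 shallower granulosa cells per library. The thinned shares were 15.6% (14.3 to 16.9), 15.2% (14.0 to 16.4), 15.5% (14.3 to 16.7) and 21.6% (20.3 to 22.9) in the same order, with the Chek2-/- IR library again above the others. With 1 library per group, a difference in dissociation or in the pooled females cannot be told apart from an effect of the group. In whole ovaries the division genes did not follow this share: Mki67, the antigen that marks cycling cells, was 380 ± 43.8 CPM (SD, n = 6) in Chek2-/- nonIR and 388 ± 47.3 (SD, n = 6) in Chek2-/- IR, with a log2 change of 0.03 (SE 0.09, edgeR quasi-likelihood adjusted p = 1).

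**Figure D1:**
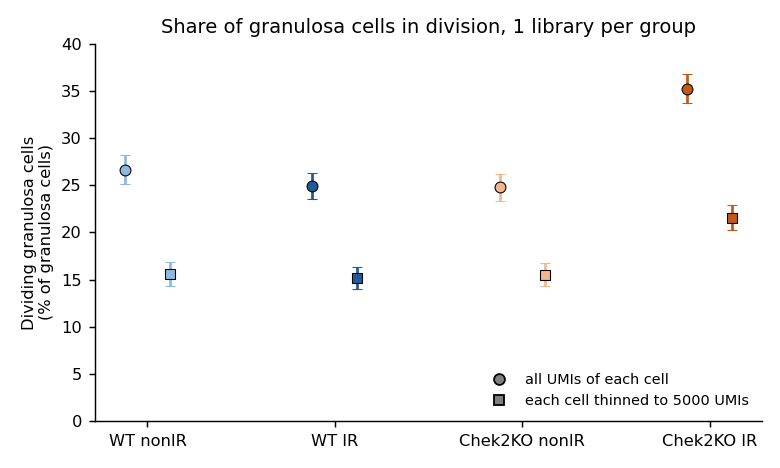
Share of granulosa cells in division (y axis, percent) in the 4 single-cell libraries (x axis, Chek2-/- written Chek2KO in all plots), from all UMIs (circles) and from cells thinned to 5000 UMIs (squares), with exact binomial 95% limits as bars. The Chek2-/- IR library stands above the other libraries both before (35.3%) and after thinning (21.6%).

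Most cells lay well inside the threshold of the rule. All 6 division genes were detected in 565, 656, 576 and 891 of them in the order WT nonIR, WT IR, Chek2-/- nonIR, Chek2-/- IR. Just inside, 149, 173, 160 and 250 cells had 4 of the 6, with median UMI counts of 27153, 23213, 26078.5 and 27071.5, and just outside, 311, 289, 323 and 407 granulosa cells had 3 of the 6, with median UMI counts of 23266, 24232, 24157 and 25297.

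The markers of the label were present in these cells. Foxl2, the transcription factor of granulosa identity, had a UMI in 95.1%, 89.0%, 95.5% and 95.5% of them in the same order, and Top2a in 88.7%, 91.2%, 90.4% and 90.5%. Plk1 and Cdc20, which drive entry into mitosis and exit from it and were not in the rule, had a UMI in 64.6% to 68.2% and in 77.1% to 79.6% of the dividing cells. In quiet granulosa cells, which are shallower, Plk1 had a UMI in 2.94% to 3.35% and Cdc20 in 12.3% to 13.1%. Beyond the rule, 30 of 30 S phase genes and 39 of 40 G2 and mitosis genes were higher in dividing than in quiet cells in all 4 libraries, as were 36.1% of 13498 genes with at least 200 UMIs in these cells, the S phase genes by a median of 3.97 to 5.29-fold and the G2 and mitosis genes by 27.7 to 37.4-fold. These ratios compare cells that the rule itself separated and carry no test.

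Genes of repair and of checkpoints were higher in dividing cells, while genes of granulosa identity were divided. All 16 genes of homologous recombination and crosslink repair were higher in dividing than in quiet cells in every library, against 36.1% of all genes, by a median of 7.34 to 10.4-fold. Brca1, which directs the repair of breaks by recombination, was 8.97 to 12.8-fold higher. All 15 checkpoint genes measured were higher as well, from Rad17, a clamp loader, at 1.02 to 1.16-fold to Cdc25c, the phosphatase that opens mitosis, at 40.5 to 57.2-fold. Of 20 genes of granulosa identity 11 were higher and 6 lower in every library, against 36.1% and 36.7% of all genes, and of 6 genes of follicle activation 4 were higher, with a list median of 1.07 to 1.37-fold. Amh, the hormone of growing follicles, was 1.42 to 1.72-fold and Inhbb, a subunit of inhibin and activin, 1.504 to 1.99-fold higher in dividing cells. Of 5 genes of quiescent pregranulosa cells, Btg2, Junb, Txnip and Cdkn1b were lower in every library, against 36.7% of all genes, with Cdkn1b, an inhibitor of cyclin-dependent kinases, at 0.453 to 0.534 of its level in quiet cells, and Cdkn1c was not.

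Few genes of dividing granulosa cells differed with irradiation. Of 11355 genes with at least 200 UMIs over both WT libraries, 174 were at least 1.5-fold higher in WT IR than in WT nonIR (1.53% of those tested) and 81 at least 1.5-fold lower (0.713%). In Chek2-/- cells 117 of 11517 genes were at least 1.5-fold higher (1.02%) and 67 lower (0.582%). The median log2 ratio over all genes was -0.02 in WT and 0.01 in Chek2-/-. The 10 highest ratios in WT were those of Ccl21a, Ifit3, Ifit1, Eda2r, Isg15, Usp18, Rsad2, Cxcl10, Dglucy and Cdkn1a. Of these, 6 are interferon-stimulated genes and Eda2r and Cdkn1a are targets of p53.

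Some other extreme ratios rested on few cells. Ccl21a, a chemokine of lymphatic and stromal cells, had 1196 UMIs in WT IR dividing cells, of which 99.1% lay in 3 cells. The lowest WT ratios were led by the mast cell proteases Tpsb2, Mcpt4 and Cma1, and 93.9% of the 380 Tpsb2 UMIs in WT nonIR also lay in 3 cells. In Chek2-/- the highest ratios were led by Nlrp14, Gdf9 and Zp3, all oocyte genes. The Gdf9 and Zp3 UMIs of Chek2-/- IR were spread more widely, over 152 and 251 cells, with 21.8% and 33.9% of them in 3 cells. The summed level of 5 oocyte markers in dividing cells was 35.2, 20.9, 9.96 and 23.2 CPM in the order of the libraries, so that Chek2-/- nonIR was lowest. Red cell markers ranged from 408 to 1166 CPM and were highest in WT nonIR, and no defining marker of the other cell types was at 0 in any library. How far RNA from other cells sets these ratios was not tested. Left out as an alternative chosen after seeing the data were 93, 142, 75 and 121 dividing cells with over 0.1% of their UMIs in markers of oocytes, epithelium, endothelium, macrophages, red cells and mural cells, after which 111 genes were higher in WT and 57 in Chek2-/-. The epithelial markers are not of other cells alone, since the paper also reports Lgr5 and Gng13 in a granulosa subcluster.

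Interferon-stimulated genes had the highest median ratio of the lists compared. In WT dividing cells 15 of 16 genes of the list were at least 1.5-fold higher with IR, against 1.53% of all genes, and the median log2 ratio was 1.72, against -0.02 over all genes. Of the 16, Ifit1, Ifit3, Rsad2 and Usp18 had under 100 UMIs in WT nonIR and reached the minimum through WT IR. The same genes did not reach it in Chek2-/-, so the main counts of WT and Chek2-/- do not cover the same genes. With genes kept by at least 100 UMIs in the nonIR library alone, 11 of 12 were higher in WT, against 1.16% of all genes, with a median of 1.501, and 2 of 11 in Chek2-/-, against 0.57%. In Chek2-/- dividing cells 2 of the 12 genes with enough UMIs were at least 1.5-fold higher, against 1.02% of all genes, with a median of 0.04, and this count went from 0 with at least 3 division genes, and 0 of 9 without cells rich in other cells' markers, to 3 of 11 with at least 5 division genes and 3 of 13 at a minimum of 100 UMIs. The only WT exception was Bst2, a membrane protein that tethers viruses, with 565 CPM in WT nonIR, 703 in WT IR, 568 in Chek2-/- nonIR and 501 in Chek2-/- IR.

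Isg15 was at 6.64 CPM in WT nonIR, 84.8 in WT IR, 4.42 in Chek2-/- nonIR and 7.91 in Chek2-/- IR. Only the WT IR library was high, with a ratio of 12.8 in WT (11.1 to 14.7) and 1.79 in Chek2-/- (1.46 to 2.20), and the WT log2 ratio exceeded that of Chek2-/- by 2.84 (counting interval 2.49 to 3.18). Ifit1 was at 1.36, 34.9, 0.476 and 1.38 CPM in the same order, a WT ratio of 25.6 (19.0 to 35.3). Ifit3, a partner of Ifit1 in antiviral complexes, was at 0.364, 12.1, 0.306 and 0.103 CPM, a WT ratio of 33.1 (18.8 to 64.7). Both belong to a family of near-identical neighbours among which reads can be lost or split. Rsad2, the antiviral enzyme viperin, was at 1.15, 11.5, 0.476 and 1.97 CPM. In Chek2-/- Ifit1 and Rsad2 were thus also higher with IR, and Ifit3 lower, at low levels. The Chek2-/- ratio of Ifit1 was 3.45 (1.61 to 8.48) on 8 and 45 UMIs in cells with more G2 and mitosis than S phase UMIs. In the reverse it was 2.03 (0.785 to 6.17) on 6 and 20 UMIs.

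Signalling members of the programme were high in the same library. Irf7, which amplifies interferon production, was at 3.64 CPM in WT nonIR, 14.3 in WT IR, 3.06 in Chek2-/- nonIR and 2.57 in Chek2-/- IR, a WT ratio of 3.94 (3.22 to 4.87). Usp18, which removes ISG15 from proteins and damps the response, was at 1.03, 10.5, 0.714 and 0.966 CPM. Cxcl10, a chemokine that attracts T cells, was at 14.6, 100 and then 18.9 and 21.1 CPM. Thus each of these 3 genes had its highest level in WT IR and levels near those of WT nonIR in both Chek2-/- libraries.

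**Figure D2:**
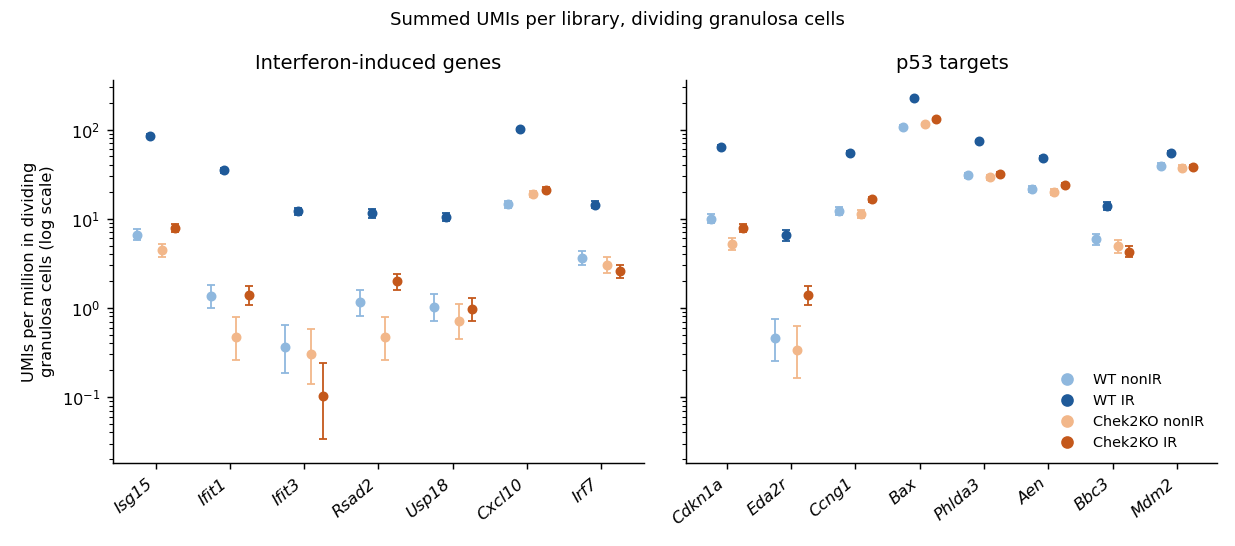
Level in CPM (log scale) of 7 interferon-stimulated genes and 8 p53 targets in the dividing granulosa cells of each of the 4 libraries, with exact Poisson 95% limits as bars. WT IR is the highest library for each of the 15 genes, from Mdm2 (54.3 against 39.5 in WT nonIR) to Ifit3 (12.1 against 0.364).

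The interferon-stimulated UMIs were spread unevenly over the cells. After thinning to 5000 UMIs, at least 5 UMIs of 14 genes of the list (without the abundant Bst2 and Ifi27) were found in 15.8% of WT IR dividing cells (146 of 926, interval 13.5 to 18.3), in 3.47% of WT nonIR (2.35 to 4.92), in 2.84% of Chek2-/- nonIR (1.84 to 4.16) and in 2.98% of Chek2-/- IR (2.14 to 4.04). Any UMI of the list was found in 63.1% of WT IR cells and in 38.3% to 39.2% of those of the other libraries. In WT IR, 79 cells, or 8.53% of the dividing cells, held at least 50% of the UMIs of the list, and in the other libraries 5.52% to 7.26% of the cells did. Quiet granulosa cells held at least 5 UMIs in 20.7% (18.9 to 22.5) in WT IR and in 3.43% in WT nonIR. In Chek2-/- they did so in 5.48% without and 6.96% with IR. Dividing cells with collagen and fibroblast genes at 1% or more of UMIs did so in 6.19% (4.003 to 9.06) in WT IR and 1.89% (0.698 to 4.07) in WT nonIR. In Chek2-/- nonIR and IR these were 4.05% (1.87 to 7.56) and 3.77% (1.74 to 7.03), and all these intervals overlapped that of WT IR.

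**Figure D3:**
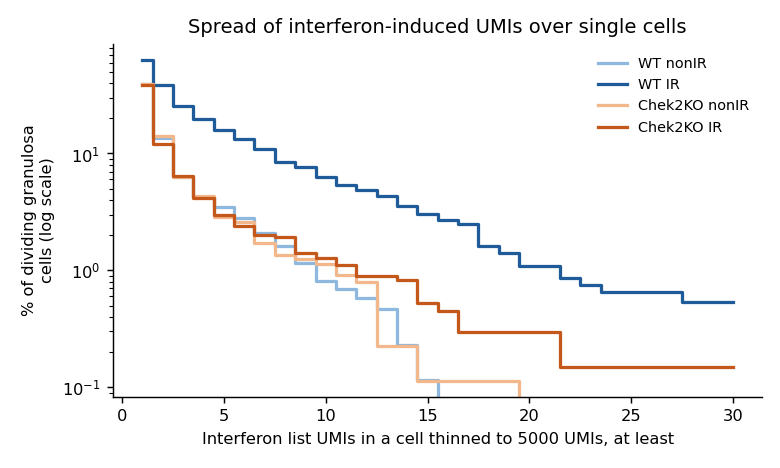
Percentage of dividing granulosa cells (y axis, log scale) that held at least the number of interferon list UMIs on the x axis, each cell thinned to 5000 UMIs, with 1 line per library. The WT IR line lies above the others, with 15.8% of cells at 5 or more UMIs against 2.84% to 3.47%.

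The increase was seen on both sides of the division cycle and in cells with and without Amh. Isg15 had a WT ratio of 14.8 (12.2 to 18.1) in dividing cells with more S phase than G2 and mitosis UMIs and of 11.1 (8.98 to 13.8) in the reverse, and the intervals overlapped. In dividing cells without an Amh UMI after thinning, Isg15 went from 15.7 to 173 CPM, and in those with one from 1.03 to 20.5 CPM, so that cells without Amh had the higher level in both WT libraries. Markers of other cells in the dividing cells moved unevenly. The summed level of 5 macrophage markers was 13.1, 12.2, 37.1 and 6.02 CPM in the order of the libraries. That of 5 epithelial markers was 259, 366, 174 and 198 CPM, with 2 of the 5 at least 1.5-fold higher in WT IR than in WT nonIR, and that of 5 mural markers 65.5, 102, 79.3 and 62.6 CPM, with 3 of the 5 higher, against 1.53% of all genes for both lists. The epithelial markers included Lgr5 and Gng13, which the paper also reports in a granulosa subcluster. It proposes that these are remaining embryonic pregranulosa cells, and it reports interferon genes in their response. Whether such cells were among those left out was not tested. The part of all these markers in the interferon result was not tested beyond leaving out cells. With cells rich in other cells' markers left out, the WT median of the list was 1.85, and without doublet calls 1.78.

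The same list was compared in the 2 most similar sets of cells. Quiet granulosa cells had 15 of 16 interferon genes at least 1.5-fold higher in WT IR, where 2.51% of all genes were, with a median log2 ratio of 1.95. With at least 100 UMIs in the nonIR library alone, 10 of 11 were higher, against 1.76%, with a median of 1.71. Their macrophage markers were at 30.3 CPM in WT nonIR and 100 in WT IR, whose part in this was not tested. Dividing cells rich in collagen genes had 0 of the 3 measurable list genes past that fold, where 0.684% of all genes were. Their share of cells with at least 5 UMIs of the list was 6.19% in WT IR and 1.89% in WT nonIR, with overlapping intervals. These 3 were Ifitm3, Bst2 and Ifi27, of which 2 passed it in dividing and 2 in quiet granulosa cells, and the genes with the highest ratios were too scarce to enter. Isg15 there went from 4.55 to 2.45 CPM on 26 and 16 UMIs. The log2 ratio of Isg15 in WT dividing granulosa cells was 4.55 above that of the dividing collagen-rich cells (counting interval 3.64 to 5.46) and 0.02 above that of quiet granulosa cells (-0.28 to 0.32). Foxl2 had a UMI in 83.7% to 90.2% of the collagen-rich dividing cells, so these are named only by the limit on collagen genes, which was set with the data in view.

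**Figure D4:**
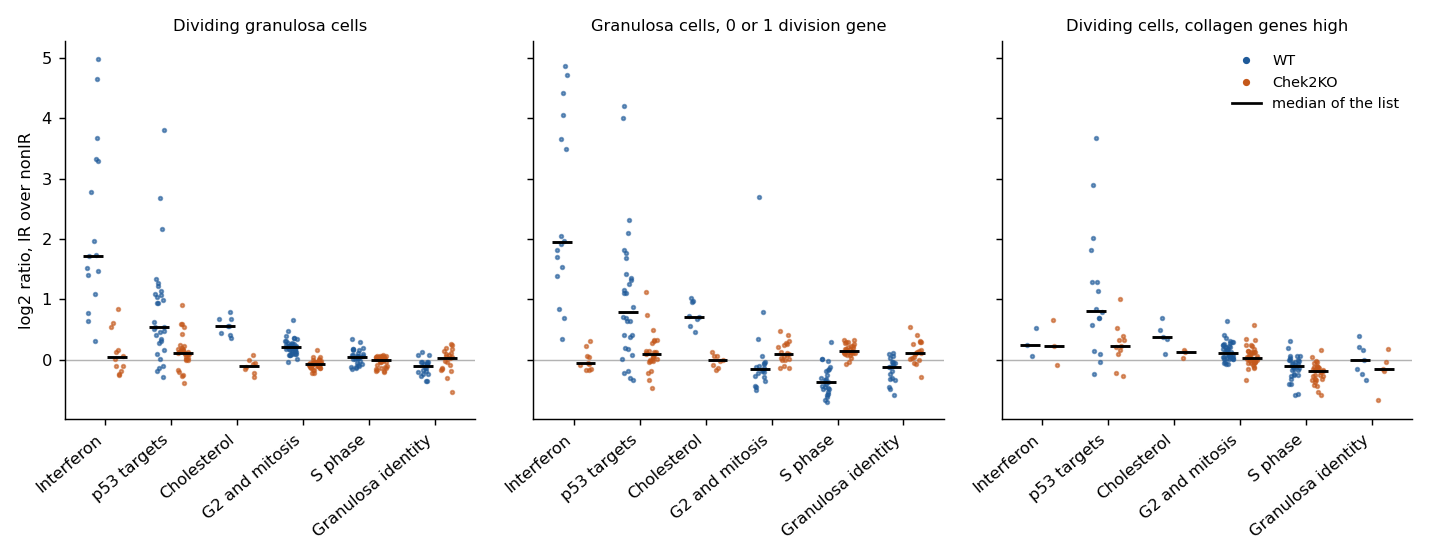
log2 ratio of IR over nonIR CPM (y axis) for each gene of 6 lists with at least 200 UMIs, in dividing granulosa cells, quiet granulosa cells and dividing cells rich in collagen genes, for WT and Chek2-/- libraries, with a black line at each median. The interferon list lies at a median of 1.72 in WT dividing granulosa cells, 1.95 in quiet ones (16 genes each) and 0.24 in dividing collagen-rich cells, where only Ifitm3, Bst2 and Ifi27 could be measured, and these 3 had medians of 0.64 and 0.70 in the first 2 sets.

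Targets of p53 were also higher in WT dividing cells after irradiation. Of the 30 list genes with enough UMIs, 14 were at least 1.5-fold higher in WT IR, against 1.53% of all genes, and the median log2 ratio was 0.54. In Chek2-/- 3 of 29 were (Cdkn1a, Plk2 and Perp), against 1.02%, with a median of 0.11, and this count was 1 of 29 as a mean over cells, without doublet calls or with at least 3 division genes, and 4 of 28 with at least 5. In quiet WT granulosa cells 19 of 30 were, against 2.51%, with a median of 0.79, and in the dividing collagen-rich WT cells 11 of 16, against 0.684%, with a median of 0.81. The same 16 genes had 8 past the fold and a median of 0.74 in dividing granulosa cells. The minimum of UMIs was over both libraries, so a target could enter these counts through WT IR. With genes kept by at least 100 UMIs in the nonIR library alone, 12 of 28 targets were higher in WT dividing cells, against 1.16%, and 2 of 26 in Chek2-/-, against 0.57%. By that filter 15 of 26 were higher in quiet WT cells, against 1.76%, with a median of 0.67. In the collagen-rich WT cells 7 of 12 were, against 0.411%, with a median of 0.69.

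Cdkn1a (p21), which halts the cycle, was at 10.0 CPM in WT nonIR, 64.3 in WT IR, 5.20 in Chek2-/- nonIR and 7.87 in Chek2-/- IR, and only WT IR was high. The WT ratio was 6.40 (5.70 to 7.22) and the Chek2-/- ratio 1.51 (1.25 to 1.84). In quiet WT cells Cdkn1a went from 5.61 to 90.8 CPM. Its log2 ratio in dividing cells was below that in quiet cells by a difference of -1.33 (counting interval -1.62 to -1.05). Of the 331 Cdkn1a UMIs in WT nonIR dividing cells 31.7% lay in 3 cells, against 4.90% of 2020 in WT IR. Such unevenness between cells is not covered by the counting intervals. After thinning, Cdkn1a had a UMI in 2.78% (1.79 to 4.11) of WT nonIR, 20.8% (18.3 to 23.6) of WT IR, 2.27% of Chek2-/- nonIR and 2.98% of Chek2-/- IR dividing cells, so most WT IR cells had none at that depth. Ccng1, a cyclin that binds a phosphatase and regulates p53, was at 12.2, 54.6, 11.4 and 16.4 CPM, with a WT ratio of 4.48 (4.02 to 5.01) against 5.00 (4.51 to 5.56) in quiet cells.

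Other targets were high in the same library. Eda2r, a death receptor of the TNF family, was scarce at 0.455, 6.55, 0.340 and 1.38 CPM, with a WT ratio of 14.4 (8.54 to 26.2) on 15 and 206 UMIs. Bax, which permeabilises mitochondria, was at 108, 226, 115 and 130 CPM, with a WT ratio of 2.09 (2.01 to 2.18). Bbc3 (PUMA), which frees Bax, was at 5.91, 13.8, 4.90 and 4.25 CPM. Phlda3, an inhibitor of AKT, was at 30.6, 73.6, 29.2 and 31.9 CPM, and Mdm2, the ligase that degrades p53, at 39.5, 54.3, 37.4 and 38.2 CPM, under the 1.5-fold limit. In each of these genes WT IR was the highest library. It was not for Rrm2b, a subunit of ribonucleotide reductase, at 14.1, 11.6, 11.6 and 12.4 CPM. The damage sensors Ddb2 and Xpc had WT ratios of 0.881 (0.758 to 1.02) and 0.903 (0.815 to 1.00), with upper limits near 1.

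The size of the Cdkn1a ratio differed among the dividing cells. It was 9.03 (7.45 to 11.03) in cells with more G2 and mitosis than S phase UMIs and 4.84 (4.15 to 5.67) in those with more S phase UMIs, and the nonIR levels behind these were 6.46 and 14.7 CPM. It was 17.9 (13.6 to 23.9) in cells with an Amh UMI, from 2.70 to 48.3 CPM, and 3.95 (3.46 to 4.52) in those without, from 21.9 to 86.3 CPM. The higher ratios therefore stood on lower nonIR levels, and the cells without Amh had the higher Cdkn1a in both WT libraries. How the 3 cells that held 31.7% of the WT nonIR Cdkn1a UMIs fell across these splits was not tested. Bax differed little by this split, with ratios of 2.06 (1.956 to 2.17) and 2.15 (2.02 to 2.30).

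The division programme itself moved little. Of 40 genes of G2 and mitosis 1 was at least 1.5-fold higher in WT IR, against 1.53% of all genes, a count near the background. It was Psrc1, which binds spindle microtubules, at 24.6, 38.9, 29.1 and 26.4 CPM with a WT ratio of 1.58 (1.44 to 1.73). The median log2 ratio of the list was 0.21 in WT and -0.07 in Chek2-/-. WT nonIR was the low library: Chek2-/- nonIR lay above it by a median of 0.27. Gtse1, a microtubule protein that restrains p53 in G2, was at 13.7, 19.2, 17.3 and 16.9 CPM, and Ckap2, a spindle protein, at 67.1, 87.5, 76.2 and 71.1 CPM. Both are known p53 targets as well, and their WT ratios were 1.39 (1.23 to 1.58) and 1.304 (1.23 to 1.38). Ccnb1, cyclin B1, was at 122, 156, 149 and 148 CPM. Genes of S phase had 0 of 30 past the fold in either genotype, with medians of 0.04 in WT and -0.01 in Chek2-/-, and with 1.53% and 1.02% of all genes past it a count of 0 is near the background.

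Among the cells that the rule let in, the balance between the parts of the cycle was alike in the libraries. Of dividing cells thinned to 5000 UMIs, 58.6% (55.2 to 61.9) in WT nonIR, 59.5% (56.3 to 62.7) in WT IR, 59.0% (55.7 to 62.3) in Chek2-/- nonIR and 57.9% (55.2 to 60.6) in Chek2-/- IR had more G2 and mitosis than S phase UMIs. All 4 intervals overlapped. This split is a range and not a type of cell, and 130, 147, 115 and 183 cells lay within 3 UMIs of it. The balance depends on the rule, since with at least 5 of the 6 division genes the shares were 65.4% to 66.1%. Cells with fewer division genes than the rule asks were not counted, so a shift of the cycle outside the rule was not tested.

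Genes of cholesterol metabolism were somewhat higher in WT IR. Of 8 genes 3 were at least 1.5-fold higher, against 1.53% of all genes, among them Idi1 at 22.5, 38.8, 28.9 and 24.7 CPM (an isomerase of the pathway) and Insig1 at 20.5, 32.6, 26.1 and 27.6 CPM (a sterol sensor). The median of the list was 0.56 in WT and -0.10 in Chek2-/-, where none passed the fold. In quiet WT cells 6 of the 8 were past it, against 2.51%. In whole ovaries edgeR called 0 of the 8 in either genotype and DESeq2 0, where 1.08% and 0.00373% of all genes were called. At an unadjusted p under 0.05, 1 was higher in WT, against 5.75% of all genes, and 3 lower in Chek2-/-, against 2.28%, with median log2 changes of 0.11 and -0.10.

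No gene of granulosa identity passed the fold, a count near the background of 1.53% and 1.02%. Of 20 genes 0 passed the fold in either genotype, with medians of -0.10 in WT and 0.03 in Chek2-/-. Amh was at 340, 287, 543 and 596 CPM and Inha, the alpha subunit of inhibin, at 1290, 1120, 1680 and 1680 CPM, both higher in the 2 Chek2-/- libraries. Whole ovaries went the other way, with mean levels in nonIR of 189 ± 36.7 CPM (SD, n = 6) in WT and 134 ± 52.5 (SD, n = 6) in Chek2-/- for Amh and of 528 ± 78.9 and 417 ± 99.3 (SD, n = 6) for Inha, and the groups overlapped. Hsd3b1, a steroid-converting enzyme, was at 617, 544, 626 and 658 CPM. Checkpoint and repair genes had 0 of 15 and 0 of 16 past the fold, which is also near the background, and Trp53, which encodes p53, was at 150, 149, 166 and 170 CPM. Of 10 early genes of tissue dissociation, 2 were higher and 1 lower past the fold in WT, against 1.53% and 0.713% of all genes. In Chek2-/- 0 were higher and 2 lower, against 1.02% and 0.582%. Atf3 was at 6.58, 21.9, 12.1 and 13.8 CPM and highest in WT IR, and Fosb at 217, 130, 156 and 108 CPM and highest in WT nonIR. The part of dissociation in the other results was not tested. The histone gene Hist1h2ap was at 334, 137, 92.4 and 51.7 CPM, highest in WT nonIR, where its UMIs lay in 606 cells with 2.63% of them in 3 cells, and has near-identical copies in the genome that can take reads from each other.

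Whole ovaries gave a test with replicates, on RNA of all cell types. In bulk, fewer cells of a type and less RNA per cell cannot be told apart. In edgeR (quasi-likelihood fit, p-values adjusted by Benjamini and Hochberg), 12 of 32 p53 targets rose at least 2-fold in WT, where 1.08% of 26790 genes changed, 0 did in Chek2-/-, where 1 gene of all did (0.00373%), and 11 differed in their response between genotypes, against 0.623% of all genes. For Chek2-/- 10 of the 32 were higher at an unadjusted p under 0.05, against 2.12% of all genes, 2 passed on the adjusted p with no minimum fold, and DESeq2 called 0 at 2-fold. The lowest, median and highest Cdkn1a levels were 22.0, 25.2 and 36.6 CPM in WT nonIR, 75.5, 87.2 and 104 in WT IR, 31.8, 39.7 and 43.0 in Chek2-/- nonIR and 37.3, 48.7 and 59.0 in Chek2-/- IR. The WT groups did not overlap and the Chek2-/- groups did. The log2 change was 1.67 in WT (SE 0.13, edgeR adjusted p = 2.48e-09) and exceeded that in Chek2-/- by 1.36 (SE 0.18, edgeR adjusted p = 5.36e-05). Ccng1 was at 37.4, 38.8 and 43.2 CPM in WT nonIR and at 151, 164 and 173 in WT IR, a log2 change of 2.03 (SE 0.05, edgeR adjusted p = 2.61e-19), and it also rose in Chek2-/- by 0.56 (SE 0.05, edgeR adjusted p = 6.82e-07).

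The small differences of Gtse1 and Ckap2 in single cells stood beside replicated ones in whole ovaries. Gtse1 was at 27.7, 30.5 and 34.1 CPM in WT nonIR (lowest, median and highest) and at 48.9, 58.1 and 71.1 in WT IR, and at 23.9, 30.95 and 33.1 in Chek2-/- nonIR and 28.5, 33.2 and 37.0 in Chek2-/- IR. The WT groups were apart, and the log2 change of 0.94 (SE 0.09, edgeR adjusted p = 5.49e-08) exceeded that of Chek2-/- by 0.80 (SE 0.12, edgeR adjusted p = 0.000317). Ckap2 went from 36.9 to 46.3 CPM in WT nonIR to 57.7 to 60.8 in WT IR, a log2 change of 0.55 (SE 0.06, edgeR adjusted p = 6.17e-07). Psrc1 rose by 0.74 (SE 0.13, edgeR adjusted p = 0.00115), with a difference between genotypes of 0.63 that did not pass (edgeR adjusted p = 0.141). In all 0 of 40 G2 and mitosis genes rose 2-fold in either genotype by edgeR and 0 by DESeq2. At an unadjusted p under 0.05, 3 were higher in WT and 0 in Chek2-/-, where 5.75% and 2.12% of all genes were, so the list as a whole was near the background.

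Interferon-stimulated genes did not pass the test in whole ovaries. Of 16 genes 0 were called by edgeR in WT, in Chek2-/- or in the difference, with 3, 0 and 0 higher at an unadjusted p under 0.05 and 0 by DESeq2, and the lowest adjusted p was 0.233 in WT. Of all genes 1.08%, 0.00373% and 0.623% were called and 5.75%, 2.12% and 4.45% were higher at that unadjusted p, so a count of 0 called is near the background. The lowest, median and highest Isg15 levels were 1.49, 2.55 and 11.998 CPM in WT nonIR, 4.74, 8.80 and 15.4 in WT IR, 1.87, 3.57 and 8.95 in Chek2-/- nonIR and 1.53, 3.52 and 28.2 in Chek2-/- IR. WT IR had the highest median and all 4 groups overlapped. WT nonIR replicate 5 at 11.998 CPM and Chek2-/- IR replicate 6 at 28.2 CPM stood far above the rest of their groups, and Chek2-/- nonIR reached into the WT IR range without them. The median log2 change over the list was 0.57 in WT and 0.63 in Chek2-/-. Leaving out these 2 libraries was a choice made after seeing the data from the very genes counted, and so no independent support. In that refit 5 of 16 genes rose in WT, 0 in Chek2-/- and 3 differed between genotypes, with medians of 1.00 and -0.16 in WT and Chek2-/-. The share of all genes called in the refit was not taken, so these counts have no background beside them. Isg15 then changed in WT by 2.00 (SE 0.39, edgeR adjusted p = 0.0037).

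**Figure D5:**
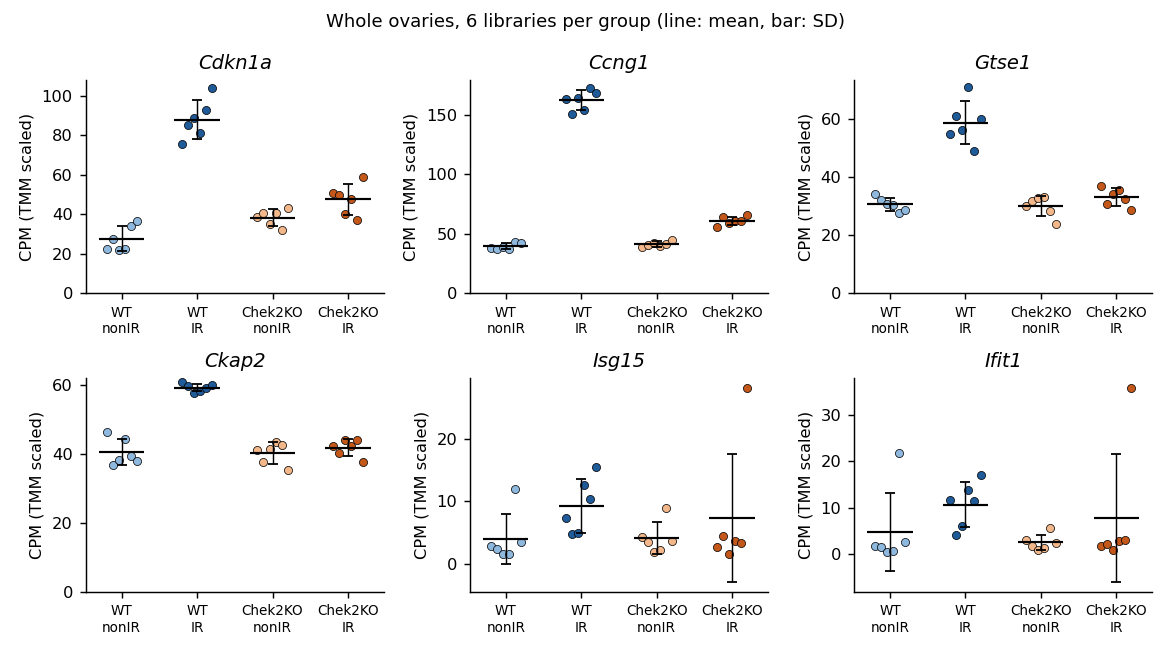
CPM on TMM-scaled library sizes of 6 genes in whole ovaries, with 1 point per library, 6 libraries per group, the mean as a line and the SD as a bar. WT IR lies apart from WT nonIR for Cdkn1a, Ccng1, Gtse1 and Ckap2, while for Isg15 and Ifit1 single libraries of WT nonIR (11.998 and 21.8) and Chek2-/- IR (28.2 and 35.9) stand far above the rest of their groups.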

How the data were processed

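Gene expression was measured in 4 single-cell and 24 bulk libraries. For single cells the authors deposited counts of UMIs per gene and barcode, made with Cell Ranger on mm10, for the 9488 to 11053 barcodes per library that its cell calling kept. For bulk RNA the authors deposited estimated counts per gene, made with nf-core/rnaseq (Trim Galore 0.6.5, Salmon 1.3.0), not scaled between libraries. Multi-mapping reads are dropped by the first and shared out by the second.

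Cells with under 1000 genes or over 20% mitochondrial UMIs were left out. UMIs were summed over the dividing cells of each library and scaled to the library's total over those cells (CPM). Genes with at least 200 UMIs over 2 libraries were compared by ratios with exact binomial limits, with 0.5 added only for log2 values, and named past 1.5-fold. No p-value was computed between single libraries. Shares carry Clopper-Pearson limits. Doublets were scored with Scrublet in scanpy 1.11.5 (Python 3.11.15). Bulk counts were rounded, filtered at 10 counts over all libraries, TMM scaled and tested with edgeR 4.0.16 (R 4.3.3) in 1 fit of 4 groups, at an adjusted p of at most 0.05 and 2-fold. DESeq2 1.42.0 was an alternative. The single-cell ratios and the edgeR fit were tested on simulated data, and DESeq2 was not. Each bulk library was made from paired ovaries, with 6 per group per the study's methods, and p-values measure the spread between these libraries.

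Cells, lists and comparisons were chosen with earlier results of these data known. Genes named were those of the rule and label, those the study names for granulosa cells, and the 10 highest and lowest ratios per genotype. The most abundant and extreme genes of each list were also named. For bulk these were the p53 targets and G2 and mitosis genes with the largest WT log2 ratios, up or down, in the dividing granulosa cells. Others (Irf7, Usp18, Rsad2 and further list members) were added after their values were seen, to show the range of a list, and some results for genes under the rule are not reported here. Other settings were a threshold of 3 or 5 division genes, TMM scaling, means over cells, other UMI minimums (for the nonIR library alone, chosen after seeing the data), other count filters, and each replicate left out.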

Additional observations from a re-analysis of the deposited data

Results flagged for a closer look

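Single bulk libraries stood far from the rest of their group of 6 for interferon-stimulated genes, by a gap larger than Dixon's 95% limit for 6 samples. For 1 gene with normally distributed values, chance alone gives about 1 such library in 20 groups. Several genes were screened here, so that rate does not apply to the counts below. Isg15 was at 11.998 CPM in WT nonIR replicate 5 (group median 2.55), at 8.95 in Chek2-/- nonIR replicate 5 (3.57) and at 28.2 in Chek2-/- IR replicate 6 (3.52). Ifit1 was at 21.8 CPM in WT nonIR replicate 5 (1.56) and at 35.9 in Chek2-/- IR replicate 6 (2.51). Ifit3 was at 28.8 CPM in the first (2.34) and at 57.6 in the second (2.95). Cxcl10 was at 44.5 CPM in the first (3.63), at 125 in the second (10.9) and at 21.8 in WT IR replicate 6 (6.85). Over the 16 genes of the list, Chek2-/- IR replicate 6 stood above its group for 15, WT nonIR replicate 5 for 11, WT IR replicate 6 for 3, Chek2-/- nonIR replicate 5 for 2 and Chek2-/- nonIR replicate 6 for 1. The cause was not tested.

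Among the p53 targets and G2 and mitosis genes picked for bulk by their ratios in dividing cells, 5 differed between genotypes in their response to irradiation by the edgeR interaction test. Other list genes that differed are not listed here. WT exceeded Chek2-/- in log2 change by 1.47 for Ccng1 (adjusted p = 8.12e-13), by 1.25 for Eda2r (adjusted p = 9.40e-08), by 1.36 for Cdkn1a (adjusted p = 5.36e-05), by 0.80 for Gtse1 (adjusted p = 0.000317) and by 0.50 for Ckap2 (adjusted p = 0.00105).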

How the results depend on the processing

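Of 189 alternatives over 31 results, leaving out single replicates aside, 150 moved the value by less than the spread or, for counts, by under 1.5 times, and 39 moved it further. Of 216 that left out 1 bulk replicate, 215 stayed within 1.5 times. List medians near 0 changed sign in 7 alternatives: the interferon list in Chek2-/- to -0.0213 as a mean over cells, -0.00629 with at least 3 division genes and -0.0663 without cells rich in other markers, the S phase list in Chek2-/- to 0.0113, 0.0156 and 0.0025 in the same settings, and the S phase list in WT (below). The share in division was 36.1%, 32.2%, 33.8% and 45.9% (WT nonIR, WT IR, Chek2-/- nonIR, Chek2-/- IR) with at least 3 of the 6 division genes, 22.1%, 20.6%, 20.3% and 28.7% with at least 5, and 15.6%, 15.2%, 15.5% and 21.6% after thinning, with Chek2-/- IR highest each time. Genes higher in WT numbered 263 and lower 156 at a minimum of 100 UMIs, 96 and 28 at 500, and 111 and 52 without cells rich in other cells' markers. In Chek2-/- these were 192 and 151, 51 and 29, and 57 and 39, 204 were higher with at least 5 division genes, and 63 with at least 100 UMIs in nonIR alone (chosen after seeing the data). The median of the G2 and mitosis list was 0.12 in WT as a mean over cells, and in Chek2-/- -0.0142 with at least 3 division genes and -0.0356 without cells rich in other markers. That of the S phase list in WT was -0.0025 with at least 3. More G2 and mitosis than S phase UMIs were held by 65.4%, 66.1%, 66.1% and 65.6% of cells with at least 5 division genes. In bulk with no minimum fold, p53 targets numbered 19 in WT, 2 in Chek2-/- and 19 in the difference, and G2 and mitosis genes 3 in WT and 2 in the difference. Leaving out 1 replicate gave 11 to 13 p53 targets in WT, 11 to 11 in the difference and 0 to 1 G2 and mitosis genes in WT (1 without WT IR replicate 5). Without WT nonIR replicate 5 and Chek2-/- IR replicate 6, 5 interferon genes rose in WT and 3 differed between genotypes. These libraries were chosen from the same genes, and the share of all genes in that refit was not taken. The replicate block gave 12, 0 and 11 p53 targets in WT, Chek2-/- and the difference, 0 G2 and mitosis genes and 0 interferon genes. Same-numbered libraries correlated from -0.101 to 0.418, with 2 of 6 pairs over 0.1 within WT and 4 of 6 within Chek2-/-, and 5 and 7 of 12 libraries correlated best with their own number. Not every pair was over 0.1, so the numbers were not taken to pair the samples. Single-cell depth gives counting limits only: what a second library per group would show cannot be read from these data, and genes under 200 UMIs entered no main count against irradiation, while Isg15 in the collagen-rich cells is given on 26 and 16 UMIs.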
